A study of Homo sapiens with 6 samples.

Results

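The response shared by both plasmid transfections was described in the established human glioblastoma cell line T98G by setting 4 libraries of plasmid-transfected cells against 2 libraries of untreated cells (NT). A gene belonged to the shared response when its level in all 4 transfected libraries lay above, or in all 4 lay below, both NT libraries. Of 14732 genes tested, 4618 met this rule, and 4452 of these were not on a list of 332 interferon genes; the members described here are those 4452, 1346 above NT and 3106 below. The transfected groups were shSRPK1, cells given a hairpin against the kinase SRPK1 in the vector pLKO.1, and oeSRPK1, cells given full-length SRPK1 cDNA in the vector pcDNA3.1. Both were transfected transiently with Lipofectamine 2000, each group had 2 libraries, and all 6 libraries were poly(A) RNA of the same cell line. No library of cells given an empty or scrambled vector was used here, so reagent, plasmid DNA, vector and insert cannot be told apart in any comparison with NT. The constructs move SRPK1 in opposite directions by design and share the reagent and the delivery of plasmid, which is why they were pooled. Nothing in the labels says that duplicates were separate cultures, so the p-values stand for the spread among these libraries only, and part of it may be technical.

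Cationic lipid carries plasmid DNA into cells by endocytosis, and part of the DNA escapes from endosomes into the cytosol. There the sensor cGAS binds double-stranded DNA and signals through STING to the kinase TBK1, which activates the transcription factor IRF3, and to NF-kB; interferons made in this way act back on the cells through the factor ISGF3, which contains IRF9. Transfection is also known as a stress on membranes and growth, so genes of the cell cycle, of ribosomes, of metabolism and of the secretory pathway are of interest beside the interferon genes.

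Reads counted in genes ranged from 3891549 to 22691215 per library, and a floor of 3 counts stood for 0.132 to 0.771 CPM (counts scaled to the total gene reads). SRPK1 had 159 and 146 CPM in NT, 110 and 136 with shSRPK1 and 186 and 167 in oeSRPK1. It was therefore on no single side of NT, and with the constructs pooled its log2 difference was 0.06 (edgeR adjusted p = 0.918). The cells expressed VIM (1687 to 2676 CPM) and CD44 (2566 to 3268 CPM) in every library, while the glial markers GFAP and SOX2 were at 0 or near it (at most 0.0733 CPM for GFAP, 0 for SOX2). Markers of striated muscle summed to 73.1 to 82.1 CPM in NT and shSRPK1, but to 383 and 3543 CPM in the oeSRPK1 libraries; endothelial markers summed to 3.96 to 5.79 CPM in NT and shSRPK1 and 11.5 and 12.6 in oeSRPK1, and epithelial markers to 57.6 to 78.1 CPM and 124 and 135. The muscle sums of NT and shSRPK1 were mostly TNNT1 (63.7 to 72.03 CPM). The higher endothelial sums were mostly ROBO4, at 0.834 to 1.01 CPM in NT and shSRPK1 and 5.33 and 5.65 in oeSRPK1, with CDH5 at most 0.0881. The higher epithelial sums were mostly KRT7 (2.86 to 14.4 CPM, then 43.7 and 52.7) and KRT18 (33.9 to 57.4, then 61.7 and 64.5). KRT8 went the other way (15.8 to 19.4, then 13.9 and 13.1), and CDH1 was at most 0.0441 CPM. MYH7, a myosin heavy chain, was at 0 in NT and in shSRPK1 replicate 1, but at 5.65 CPM in shSRPK1 replicate 2 and 106 and 1260 CPM in oeSRPK1. The part of these lists in the results was not tested, except that the pooled test called 116 genes with the muscle markers left out and 115 with them. In bulk RNA, fewer cells of a type and less RNA per cell cannot be told apart.

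On CPM, 1503 of the tested genes lay above NT in all 4 transfected libraries (10.2%) and 3115 below (21.1%). With TMM scaling (trimmed mean of M values, which corrects for differences in RNA composition) the split was more even, 2126 above (14.4%) and 2214 below (15%). The median log2 difference over all tested genes was -0.08 on CPM and 0.03 after TMM. The list of interferon genes contributed 157 genes above and 9 below. The rule is one of order, with no minimum size. RBPMS, just inside it, had 63.3 and 67.0 CPM in NT against a highest transfected level of 63.3, and MRPL20 was among the genes just outside. With a gap of at least 25% between the groups, 493 genes above and 784 below remained.

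Named genes outside the interferon list did pass a test, some of them with large differences. REC8, VEGFC and IQGAP3 were higher in every transfected library, and KIT, GNAL and RASL11A lower, as the rule requires. The test used the same values as the rule, so neither is independent support for the other. In edgeR's quasi-likelihood test of the 4 transfected libraries against the 2 NT libraries, where the difference between the constructs counts as spread, 86 genes were called higher (0.584% of those tested) and 29 lower (0.197%) at a Benjamini-Hochberg adjusted p under 0.05. Interferon genes made up 65 of the rises and none of the falls (0 of 29). The remaining 50 calls were 21 rises of 1.84-fold to 9.97-fold and 29 falls of 1.66-fold to 4.71-fold, and 19 of the rises and 19 of the falls reached 2-fold. Their adjusted p-values ran from 0.0144 to 0.0498. These calls rest on both NT libraries: without NT replicate 1 the same test called 0 genes (695 at an unadjusted p under 0.05) and without NT replicate 2 it called 2. They also rest on oeSRPK1, since 44 genes were called without its replicate 1 and 15 without its replicate 2. Leaving out a shSRPK1 library raised the number, to 243 without its replicate 1 and 296 without its replicate 2. All 50 passed in DESeq2, which called 629 genes. No gene of the 50 reversed its direction under any of the alternatives in the plot of calls by fit. That could hardly happen, because each had all 4 transfected libraries on one side of both NT libraries, so it is no separate support.

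**Figure D1:**
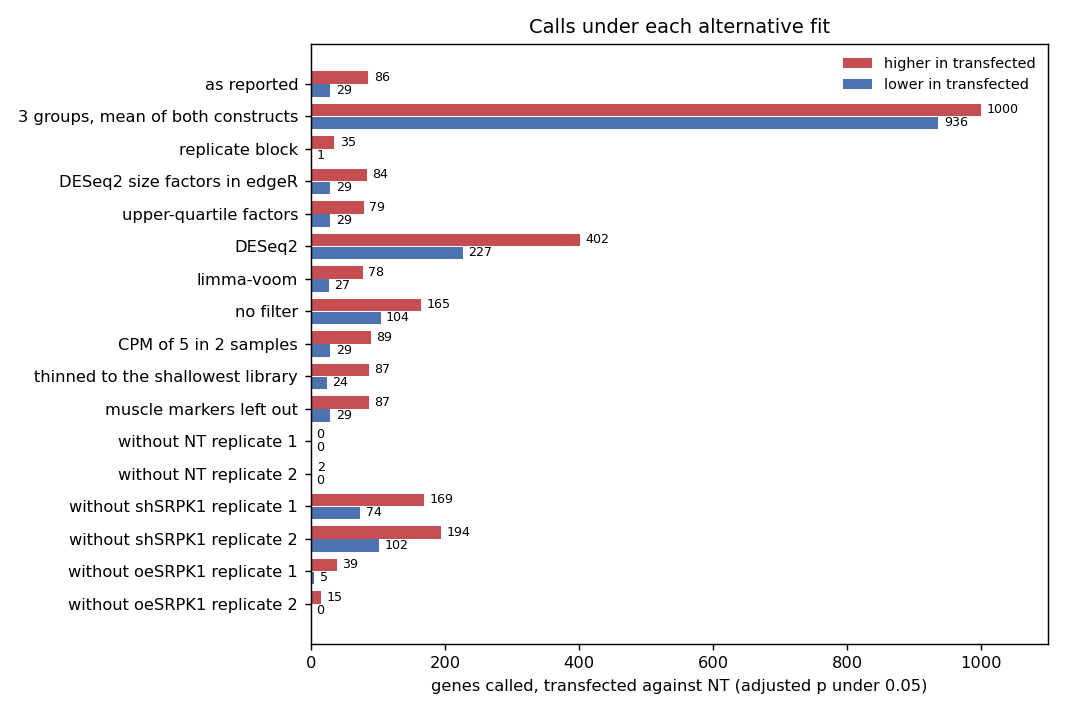
Genes called (adjusted p under 0.05) in transfected against NT under the reported fit and each alternative; the x axis is the number of genes, with red bars for genes higher in transfected cells and blue bars for genes lower. The reported fit gave 86 and 29, DESeq2 gave 402 and 227, the fit without NT replicate 1 gave 0 and 0, and the fit that tests the mean of both constructs against NT, with 3 groups, gave 1000 and 936.

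Among the rises were several secreted and matrix proteins. VEGFC (chr4:176683538-176792727, minus strand, GENCODE 29 on GRCh38), the growth factor of lymphatic vessels, had 21.4 and 21.3 CPM in NT, 55.9 and 63.2 with shSRPK1 and 50.7 and 50.1 in oeSRPK1. The transfected libraries lay far above both NT libraries, and it rose 2.74-fold (95% interval 2.11 to 3.56, adjusted p = 0.0167). COL7A1, the collagen of the anchoring fibrils that tie epithelium to dermis, had 424 and 484 CPM in NT against 1269, 1144, 942 and 936, a rise of 2.51-fold (1.79 to 3.53, adjusted p = 0.0433). UCN2, a peptide of the corticotropin-releasing factor family, rose 3.85-fold (2.44 to 6.08, adjusted p = 0.0333), from 4.95 and 5.94 CPM to 13.1 CPM in shSRPK1 replicate 2 and between 21 and 22.9 in the other transfected libraries. UCN2 starts 0.3 kb beyond the 3′ end of COL7A1 on the same strand, and it overlaps PFKFB4, so reads running past COL7A1 or belonging to PFKFB4 cannot be told apart from its own. AGRN, the proteoglycan agrin that clusters acetylcholine receptors at the neuromuscular junction, had 277 and 288 CPM in NT and 501 to 598 in the transfected libraries, and rose 2.09-fold (1.63 to 2.67, adjusted p = 0.0317). CHRNA1, the alpha subunit of the muscle acetylcholine receptor, was counted at 2 and 6 reads in NT and at 46, 21, 90 and 14 reads with shSRPK1 and oeSRPK1. That made 0.202 and 0.440 CPM against 3.37, 1.95, 3.97 and 3.60, a 9.97-fold rise with a wide interval (4.34 to 22.9, adjusted p = 0.0404). The part of the muscle markers in this rise was not tested.

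Other rises were signalling, nuclear and adaptor proteins. IQGAP3, a scaffold of the actin cytoskeleton found in dividing cells, had 43.1 and 46.2 CPM in NT and between 93.4 and 103 in all transfected libraries, a rise of 2.34-fold (1.90 to 2.89, adjusted p = 0.0144). MKNK2, the kinase MNK2 that phosphorylates the cap-binding factor eIF4E, went from 88.9 and 97.5 CPM to 175 to 192 CPM, 2.08-fold (adjusted p = 0.0199). These 2 genes had little spread among the transfected libraries, and their groups were well apart. PRKD2, protein kinase D2, rose 2.07-fold, and PLXNA3, a receptor chain for semaphorins, 1.84-fold. THEMIS2, a signalling adaptor known from B cells and macrophages, rose 3.05-fold (2.18 to 4.28, adjusted p = 0.0234). Its levels were 11.7 and 15 CPM in NT and 34.9 to 47.3 CPM after transfection. Summed markers of leukocytes were 42.2 and 43.8 CPM in NT and 33.1 to 54.2 in transfected cells, mostly ITGAX (28.4 to 45.0 CPM). ITGAM had 2.93 and 3.01 CPM in NT, 1.10 and 3.43 with shSRPK1 and 6.13 and 7.97 in oeSRPK1. PTPRC and CD3E were at 0 in all 6 libraries. The part of leukocyte markers in the THEMIS2 rise was not tested. H2AC6, a histone H2A gene, rose 3.51-fold (2.40 to 5.13, adjusted p = 0.0234), from 22.0 and 30.3 CPM to 63.4 to 99.1. ARRDC3, an alpha-arrestin that helps sort membrane receptors, rose 2.81-fold, and LUCAT1, a long noncoding RNA on the same strand 54.2 kb away, 1.98-fold. SPAG4, a SUN domain protein of the nuclear envelope, UAP1L1 and the antisense RNA ZMIZ1-AS1 rose 2.13-fold, 2.06-fold and 2.55-fold. The noncoding RNA AC116407.2 rose 8.60-fold (4.03 to 18.4, adjusted p = 0.0369), from 1.62 and 1.69 CPM to 13.6 and 21.5 with shSRPK1 and 8.95 and 9.25 in oeSRPK1.

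Several rises outside the interferon list lay beside genes on it. REC8, the cohesin subunit of meiotic chromosomes (chr14:24171853-24180257, plus strand), had 4.25 and 5.06 CPM in NT, 17.7 and 24.8 with shSRPK1 and 17.8 and 22.4 in oeSRPK1. Every transfected library was well above the higher NT value, and the rise was 4.68-fold (3.19 to 6.87, adjusted p = 0.0144). REC8 lies 5.29 kb from IRF9, a subunit of the interferon-activated factor ISGF3. AL136295.5, 4.5 kb from REC8, overlaps both RNF31 and IRF9 on the same strand and rose 5.71-fold. ODF3B, named for the outer dense fibres of sperm tails, overlaps the interferon-list gene TYMP on the same strand. It rose 5.40-fold (3.30 to 8.85, adjusted p = 0.0217), from 1.92 and 3.23 CPM to 10.4 to 15.8. TMEM132A overlaps SLC15A3 on the opposite strand and rose 2.02-fold, and AGRN lies 5.58 kb from ISG15. In all, 5 of the 21 rises (23.8%) and 0 of the 29 falls lay within 20 kb of a gene on the interferon list, a distance chosen after the values were seen, against 283 of 14387 tested genes outside that list (1.97%). The strand setting of the counts was not given, so reads of ODF3B, AL136295.5 and TMEM132A cannot be separated from those of the interferon genes they overlap. REC8 and AGRN do not overlap an interferon-list gene.

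**Figure D2:**
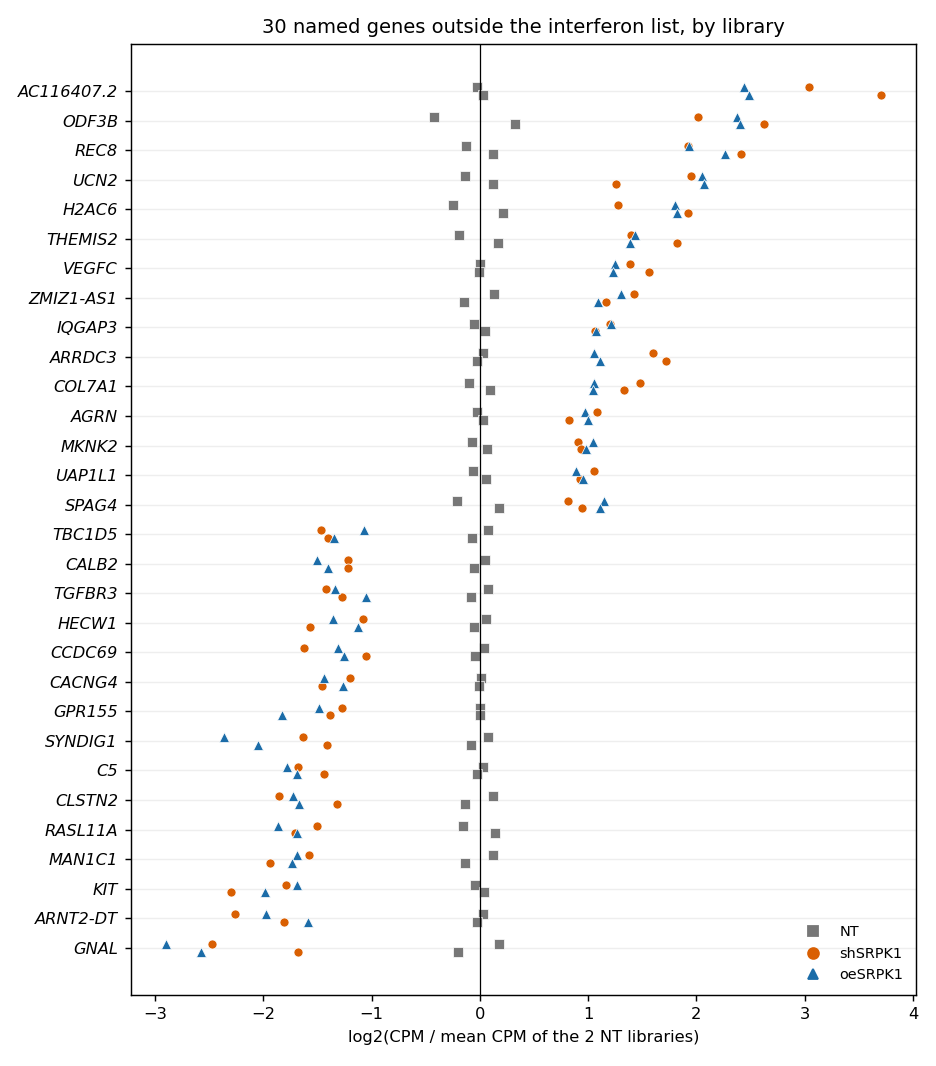
Level of the 15 named rises and 15 named falls in each library; the x axis is log2 of CPM over the mean of both NT libraries, grey squares are NT, orange circles shSRPK1 and blue triangles oeSRPK1. All 4 transfected libraries lie to one side of both NT libraries in each row, as the rule requires, and the log2 difference between the constructs is largest for AC116407.2 (-0.97), GNAL (-0.78) and SYNDIG1 (-0.75).

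The promoters of the rises were searched for the core of the element bound by interferon-activated factors, because neighbours of interferon genes were among them. The letters searched were AANNGAAAC, on both strands, in the 250 bases before the RefSeq start (GRCh38.p14). Of 47 called interferon genes with a promoter in the table, 27 held the core (57.45%), against 3.405% of all 10719 tested genes matched. None of the 14 matched rises outside the interferon list did (0 of 14), nor did any of the 21 matched falls (0 of 21). Sets this small cannot be told apart from the 3.405% of all genes. Among the neighbours of interferon genes, ODF3B and AGRN had no promoter entry used here, so the search did not cover them. OAS1 is an interferon gene whose RNA-activated enzyme makes the messenger that acts on RNase L. The sequences shown are OAS1 (chr12:112906712-112906961, plus strand), with the core in capitals, and 2 rises without it, REC8 (chr14:24171830-24172079, plus strand) and VEGFC (chr4:176792923-176793172, minus strand).
OAS1: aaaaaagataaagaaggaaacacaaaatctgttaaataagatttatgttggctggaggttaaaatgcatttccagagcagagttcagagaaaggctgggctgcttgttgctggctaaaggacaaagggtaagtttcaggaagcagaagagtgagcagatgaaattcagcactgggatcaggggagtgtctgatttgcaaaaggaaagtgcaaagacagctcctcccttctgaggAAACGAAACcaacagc
REC8: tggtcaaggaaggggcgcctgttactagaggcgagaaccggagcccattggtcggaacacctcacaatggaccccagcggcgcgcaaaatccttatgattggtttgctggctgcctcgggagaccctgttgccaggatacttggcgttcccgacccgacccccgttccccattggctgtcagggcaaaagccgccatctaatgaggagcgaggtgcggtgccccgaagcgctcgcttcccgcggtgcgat
VEGFC: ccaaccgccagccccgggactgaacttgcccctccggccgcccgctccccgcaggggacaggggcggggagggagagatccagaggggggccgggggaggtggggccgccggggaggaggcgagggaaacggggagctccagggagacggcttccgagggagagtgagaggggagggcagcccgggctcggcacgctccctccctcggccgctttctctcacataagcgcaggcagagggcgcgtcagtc
OAS1 held its core 16 bases before the start, and its level was 16.6 and 28.9 CPM in NT and 283 to 381 CPM in transfected cells. In REC8 and VEGFC these letters are not in this window, which says nothing of sites elsewhere.

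Receptors and signalling proteins were among the falls. KIT, the receptor tyrosine kinase for stem cell factor (chr4:54657918-54740715, plus strand), had 12.8 and 13.6 CPM in NT, 3.81 and 2.69 with shSRPK1 and 4.10 and 3.34 in oeSRPK1. The groups did not come close to each other, and KIT fell 3.52-fold (2.43 to 5.09, adjusted p = 0.0217). GNAL, the G protein subunit that couples olfactory and dopamine receptors to adenylyl cyclase, had 20.7 and 16 CPM in NT and 3.30, 5.74, 2.47 and 3.08 CPM after transfection. It fell 4.71-fold (2.74 to 8.11, adjusted p = 0.0367), the largest fall among the 29. GNAL overlaps CHMP1B on the same strand, so their reads may not be fully separated. TGFBR3, the co-receptor betaglycan for TGF-beta and inhibin, fell 2.28-fold (1.72 to 3.01, adjusted p = 0.0332), from 21.9 and 19.7 CPM to 7.77 to 10.0 CPM. GPR155, a membrane protein of lysosomes, fell 2.58-fold, with 21.9 CPM in both NT libraries and 6.17 to 9.08 CPM in transfected cells. RASL11A, a small GTPase of the Ras family, fell 3.02-fold (2.30 to 3.98, adjusted p = 0.0144), from 30.5 and 37.3 CPM to 9.34 to 11.9 CPM.

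Some falls are genes best known from neurons. CLSTN2, the synaptic adhesion protein calsyntenin-2, had 472 and 395 CPM in NT, 120 and 174 with shSRPK1 and 131 and 136 in oeSRPK1, a fall of 2.91-fold (2.17 to 3.89, adjusted p = 0.0196). SYNDIG1, a partner of AMPA-type glutamate receptors, fell 3.29-fold, from 32.4 and 29.1 CPM to 5.99 to 11.6 CPM. CACNG4, an auxiliary subunit of the same receptors, fell 2.38-fold, and CALB2, the calcium-binding protein calretinin, 2.36-fold. REEP1, a protein that shapes the endoplasmic reticulum, fell 4.01-fold from 4.25 and 4.03 CPM to between 0.659 and 1.15 CPM, and the ubiquitin ligase HECW1 2.28-fold. These genes were put together after their values were seen, and they are not a tested group. The list of 30 neuronal genes chosen apart from them had 11 tested members, with a median log2 difference of -0.10. Of these, 0 lay above NT in all 4 libraries and 1 below (9.09%), against 10.2% and 21.1% of all genes. Its summed level was 149 and 156 CPM in NT, 113 and 153 with shSRPK1 and 85.7 and 90.5 in oeSRPK1, and DCX, NEFL and NEFM were at 0 in all libraries.

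The other falls were enzymes and trafficking proteins. TBC1D5 and TBC1D14, which control Rab GTPases in endosome sorting and autophagy, fell 2.33-fold (1.84 to 2.95, adjusted p = 0.0196) and 2.14-fold (1.75 to 2.61, adjusted p = 0.0167). TBC1D14 went from 113 and 107 CPM to 44.0 to 52.4 CPM, a narrow range across both constructs. C5, the complement component, fell 2.93-fold from 24.6 and 23.6 CPM to 7.01 to 8.90 CPM. MAN1C1, a mannosidase that trims N-glycans in the Golgi, fell 3.10-fold, HS6ST3, which sulfates heparan sulfate chains, 2.18-fold, and CYBRD1, a ferric reductase, 1.73-fold. AHCY, which clears S-adenosylhomocysteine, fell 1.86-fold, and EIF3L, a subunit of the translation factor eIF3, 1.75-fold. ZMAT3, an RNA-binding product of a p53 target gene, fell 2.37-fold. CMTM6, which stabilises the checkpoint ligand PD-L1 at the cell surface, had 266 and 279 CPM in NT and 145 to 162 CPM in transfected cells, the smallest of the called falls (1.66-fold, adjusted p = 0.0498). ARPIN, an inhibitor of the Arp2/3 complex, fell 1.74-fold. ARPIN overlaps ARPIN-AP3S2 and TBC1D5 overlaps SATB1, each on the same strand, so their reads may not be fully separated. Others called lower were ARNT2-DT, CCDC69, LRP11, NT5DC1, RFLNB and TMEM164. Calls that belonged to a gene list used here included H2AC6, COL7A1, TGFBR3 and ZMAT3.

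Beyond single calls, the gene lists are described by counts and medians beside those of all genes, with no test of the list itself. Genes of the G1/S transition and of DNA replication were below NT as a list. Of 70 tested, 50 lay below NT in all 4 transfected libraries (71.4%, against 21.1% of all genes) and 1 above, E2F7; after TMM it was 43 below and 1 above. Their median log2 difference was -0.62, against 0.03 over all genes, and it was -0.56 for shSRPK1 and -0.78 for oeSRPK1, comparisons that share the NT libraries. The members named here did not pass the pooled test. MCM6, part of the helicase that opens replication origins, had 96.5 and 77.4 CPM in NT, 48.6 and 23.3 with shSRPK1 and 13.9 and 20.04 in oeSRPK1 (log2 difference -1.62, adjusted p = 0.163). PCNA, the sliding clamp of DNA polymerases, had 228 and 200 CPM against 124, 89.5, 76.9 and 98.9 (adjusted p = 0.0743). E2F1, a transcription factor that drives this programme, had 92.8 and 71.3 CPM against 44.3, 26.8, 18.1 and 28.0 (adjusted p = 0.12). All 3 genes were highest in NT replicate 1, and the list's median was 0.14 above the NT mean in that library and 0.14 below it in NT replicate 2. In the fit with 3 groups, which does not count the construct difference as spread, 29 members were lower and 1 higher, against 6.35% and 6.79% of all genes, with 1 to 66 lower when single libraries were left out.

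Promoters of this list were searched for the letters of E2F sites, TTTCCCGC, TTTGGCGC, TTTCGCGC and TTTGCCGC, on both strands and in the same 250 bases. Of the 42 matched genes on the low side, 17 held such letters (40.48%), and 19 of the 57 matched members tested did (33.33%), against 4.478% of all matched genes. Of the 21 matched falls outside the interferon list, 2 held them, KIT and HS6ST3 (9.524%). MCM6 (chr2:135876444-135876693, minus strand) and E2F1 (chr20:33686386-33686635, minus strand) are shown for the list and KIT (chr4:54657707-54657956, plus strand) for the calls, with matches in capitals.
MCM6: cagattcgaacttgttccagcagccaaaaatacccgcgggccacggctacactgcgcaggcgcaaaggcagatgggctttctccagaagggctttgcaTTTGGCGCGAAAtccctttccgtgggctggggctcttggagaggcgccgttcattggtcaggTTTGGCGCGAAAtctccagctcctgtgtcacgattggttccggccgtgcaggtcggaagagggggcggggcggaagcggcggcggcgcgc
E2F1: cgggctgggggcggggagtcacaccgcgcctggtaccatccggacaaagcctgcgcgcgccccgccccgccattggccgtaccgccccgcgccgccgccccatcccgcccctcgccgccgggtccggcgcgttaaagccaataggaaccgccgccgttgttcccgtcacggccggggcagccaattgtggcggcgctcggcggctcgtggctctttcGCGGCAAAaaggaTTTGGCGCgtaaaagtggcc
KIT: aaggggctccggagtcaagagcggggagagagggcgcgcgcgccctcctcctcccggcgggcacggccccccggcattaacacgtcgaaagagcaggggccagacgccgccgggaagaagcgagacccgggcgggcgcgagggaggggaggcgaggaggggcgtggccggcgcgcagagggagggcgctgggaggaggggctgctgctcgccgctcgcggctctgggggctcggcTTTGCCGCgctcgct
MCM6 had 4 matches that overlap in pairs, the nearest beginning 86 bases before the start. E2F1 had 2, at 33 and 20 bases, and KIT had 1, at 15 bases. A match describes the letters and is no evidence of binding in these cells.

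Genes of cytosolic ribosomal proteins were mostly below NT. Of 80 tested, 66 lay below NT in all 4 transfected libraries (82.5%) and 0 above, and 59 were below after TMM. The size was small, with a median log2 difference of -0.31, and 0 members passed the pooled test, where 0.197% of all genes were called lower; in the fit with 3 groups 24 were lower, against 6.35% of all genes (0 to 64 with single libraries left out). RPS3A, a protein of the small subunit, had 1056 and 1024 CPM in NT and 557, 583, 630 and 689 CPM after transfection. RPS6, the target of S6 kinases, had 941 and 960 CPM in NT and 568 to 640 CPM after transfection. Genes of ribosome biogenesis were on the same side, with 25 of 56 below and 0 above on CPM (20 and 1 after TMM), and a median of -0.18. POLR1E, a subunit of RNA polymerase I, had 41.2 and 36.4 CPM in NT and 21.3 to 23.4 CPM in transfected cells (adjusted p = 0.0812). Nuclear genes of the respiratory chain depended on the scaling: 28 of 69 lay below on CPM (40.6%), but 14 after TMM.

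**Figure D3:**
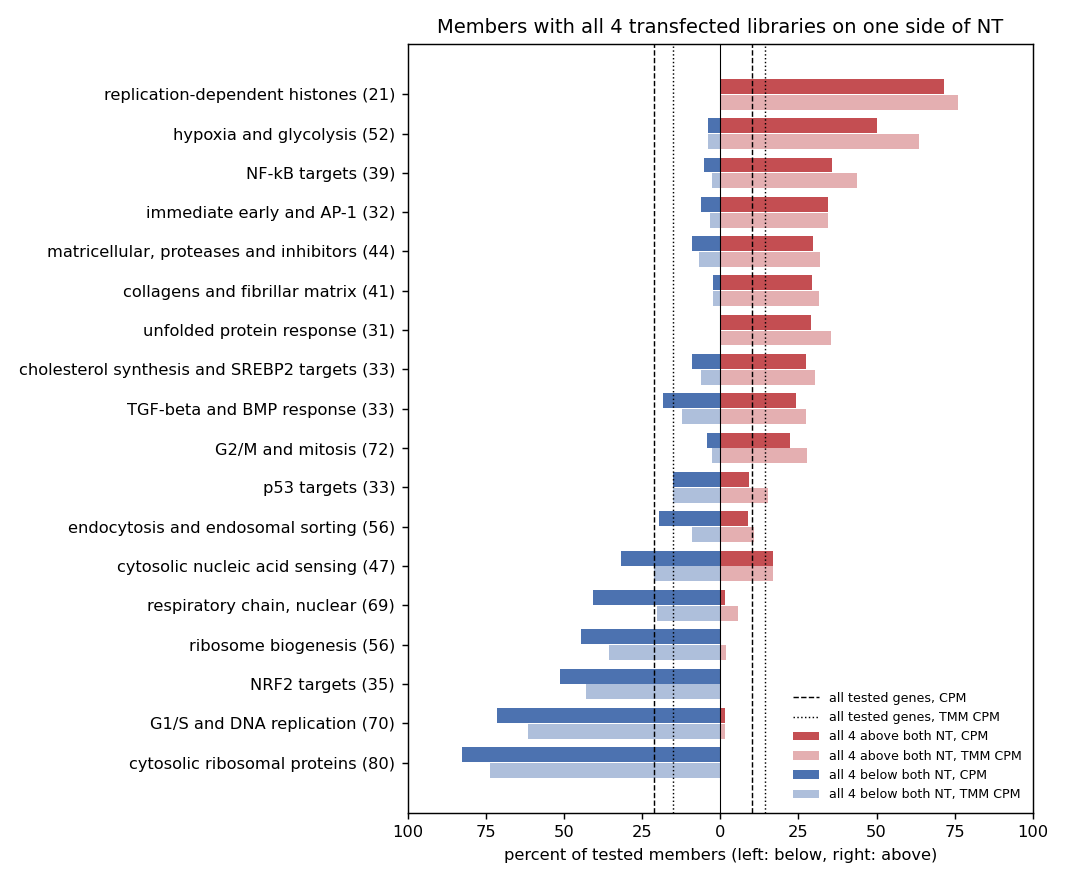
Percent of the tested members of each list with all 4 transfected libraries above (red, to the right) or below (blue, to the left) both NT libraries, on CPM (dark) and TMM-scaled CPM (light); the number tested is in brackets and the vertical lines give all 14732 tested genes. Histones (71.4% above) and ribosomal proteins (82.5% below) stand at the ends, against 10.2% and 21.1% of all genes.

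Histone genes and genes of hypoxia and glycolysis were on the high side. Of 21 histone genes tested, 15 lay above NT (71.4%, against 10.2% of all genes) and 0 below, with a median log2 difference of 1.32. H2AC6 was called, and H2BC21, an H2B gene, had 6.07 and 8.07 CPM in NT, 16.3 and 29.8 with shSRPK1 and 22.3 and 15.9 in oeSRPK1 (adjusted p = 0.0803). Most histone messages lack a poly(A) tail, and poly(A) selection therefore keeps only part of them. NT differed within itself here too, with a list median of -0.23 in replicate 1 and 0.23 in replicate 2 around the NT mean. Of 52 hypoxia and glycolysis genes tested, 26 lay above NT (50%, against 10.2% of all genes) and 2 below. After TMM it was 33 above (63.5%, against 14.4% of all genes) and 2 below. The median log2 difference was 0.82. It was 0.83 for shSRPK1 and 0.76 for oeSRPK1, which share NT. The shSRPK1 value rests largely on replicate 1, with per-library medians of 1.06 and 0.26 in shSRPK1, 0.71 and 0.64 in oeSRPK1, and 0.13 in NT replicate 2. No member passed the pooled test (0 of 52), where 0.584% of all genes were called higher. In the fit with 3 groups 19 were higher, against 6.79% of all genes (0 to 44 with single libraries left out). CA9, the carbonic anhydrase used as a hypoxia marker, had 45.5 and 70.9 CPM in NT, 287 and 133 with shSRPK1 and 188 and 159 in oeSRPK1 (log2 difference 1.81, adjusted p = 0.0831). SLC2A1, the glucose transporter GLUT1, had 509 and 632 CPM in NT and 2035, 675, 1741 and 1592 CPM after transfection. Here shSRPK1 replicate 2 stood close to NT and the other 3 libraries far above. P4HA1, a subunit of collagen prolyl hydroxylase, had 301 and 382 CPM in NT and 554 to 705 CPM in transfected cells. The members below were CA12, another carbonic anhydrase, with 298 and 299 CPM in NT against 102 to 212, and PFKM, the muscle form of phosphofructokinase, with 102 and 101 CPM against 59.3 to 75.7.

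The hypoxia list was searched for TACGTG, a form of the element bound by hypoxia-inducible factors, in the same way. The letters stood in 7 of the 24 matched genes on the high side (29.17%) and in 10 of the 45 matched members tested (22.22%), against 2.939% of all matched genes. CA9 (chr9:35673678-35673927, plus strand) and P4HA1 (chr10:73096867-73097116, minus strand) are shown as the members whose values are given with the list.
CA9: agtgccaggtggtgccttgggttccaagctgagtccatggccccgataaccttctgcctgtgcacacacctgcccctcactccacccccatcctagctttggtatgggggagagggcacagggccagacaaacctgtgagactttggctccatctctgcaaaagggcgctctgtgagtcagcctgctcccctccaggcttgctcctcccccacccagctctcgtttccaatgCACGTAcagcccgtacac
P4HA1: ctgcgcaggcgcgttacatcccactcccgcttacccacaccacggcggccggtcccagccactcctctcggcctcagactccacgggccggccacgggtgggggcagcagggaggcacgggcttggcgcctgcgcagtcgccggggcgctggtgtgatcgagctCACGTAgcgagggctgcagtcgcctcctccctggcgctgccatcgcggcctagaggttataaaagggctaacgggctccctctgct
In both, the capitals mark TACGTG read on the opposite strand, 18 bases before the start in CA9 and 86 bases in P4HA1. The others with the letters were ALDOC, ANKRD37, BHLHE40, LOX and PLOD2, and 0 of the 14 matched rises held them.

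Chaperones of the endoplasmic reticulum leaned to the high side. Of 31 genes of the unfolded protein response, 9 lay above NT (29.03%, against 10.2% of all genes) and 0 below, with a median log2 difference of 0.30. The pooled test called 0 of them, where 0.584% of all genes were called higher. HSPA5, the chaperone BiP, had 2267 and 2239 CPM in NT and 3557, 3622, 3889 and 3828 CPM in transfected cells, a narrow range across the constructs (log2 difference 0.81, adjusted p = 0.106). Among 41 genes of collagens and fibrillar matrix, 12 lay above NT (29.3%) and 1 below, and COL7A1 was called. PLOD1, a collagen lysyl hydroxylase, had 506 and 599 CPM in NT against 1494, 1067, 1102 and 1002. The list's median was 0.63 for shSRPK1 and -0.03 for oeSRPK1, and 21 of its members were lower in oeSRPK1 than in shSRPK1, against 11.3% of all genes. Among 33 genes of TGF-beta and BMP response, 8 lay above (24.2%) and 6 below (18.2%), against 10.2% and 21.1% of all genes. The share below was thus no higher than among all genes. INHBA, which forms activin A, had 8.49 and 12.5 CPM in NT, 80.0 and 65.8 with shSRPK1 and 39.7 and 34.9 in oeSRPK1, just short of the threshold (log2 difference 2.48, adjusted p = 0.0524). SMAD9, a transducer of BMP signals, had 47.6 and 52.0 CPM in NT and 19.5 to 29.2 CPM after transfection (adjusted p = 0.0737), on the low side like TGFBR3.

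Other lists differed between the constructs in their medians. Of 35 targets of NRF2, the factor of the oxidative stress response, 18 lay below NT (51.4%, against 21.1% of all genes) and 0 above. Their median was -0.26 for shSRPK1 and -1.56 for oeSRPK1. In shSRPK1 replicate 2 alone it was -0.08, close to NT (0.04 and -0.04) and to all genes in that library (-0.09). Of the 35, 25 were lower in oeSRPK1 than in shSRPK1 (11.3% of all genes were). AKR1C1, an aldo-keto reductase, had 1661 and 1626 CPM in NT, 626 and 1091 with shSRPK1 and 141 and 230 in oeSRPK1. Of 39 NF-kB targets, 14 lay above NT (35.9%, against 10.2% of all genes) and 2 below. Their medians were 0.38 for shSRPK1 and 1.10 for oeSRPK1, and 20 were higher in oeSRPK1 than in shSRPK1 (11.5% of all genes were). The median in shSRPK1 replicate 1, 0.06, lay between those of the NT libraries (-0.12 and 0.12). CXCL8, the chemokine that attracts neutrophils, had 28.3 and 42.1 CPM in NT, 97.5 and 136 with shSRPK1 and 512 and 416 in oeSRPK1. TNFAIP3, the inhibitor A20 that closes NF-kB signalling, was less different between the constructs, with 16.2 and 21 CPM in NT against 43.0, 28.9, 44.0 and 40.6 (adjusted p = 0.079). Across all genes, 3361 differed between oeSRPK1 and shSRPK1 (22.8%) in the fit with 3 groups.

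**Figure D4:**
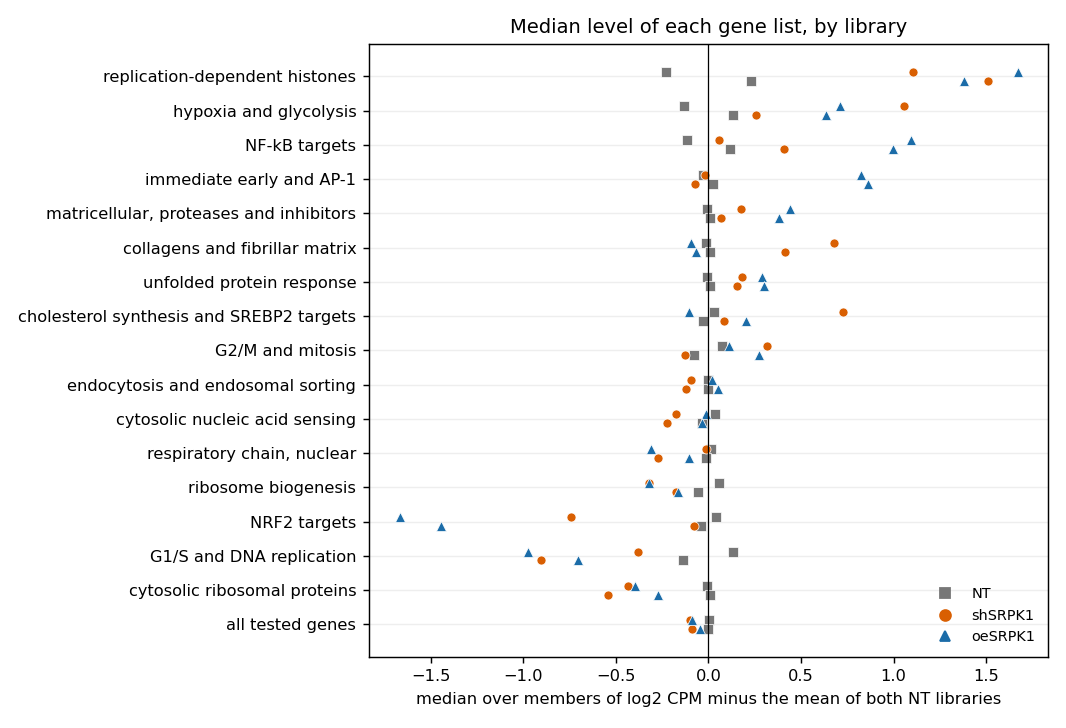
Median over the members of each list of log2 CPM minus the mean of both NT libraries, per library (grey squares NT, orange circles shSRPK1, blue triangles oeSRPK1). Ribosomal proteins, G1/S genes and histones have all 4 transfected medians beyond both NT medians, as do NRF2 targets and other lists. All tested genes do too, at -0.05 to -0.10, so this order alone marks no list. For NRF2 targets shSRPK1 replicate 2 (-0.08) is close to NT, and the oeSRPK1 libraries are at -1.67 and -1.44.

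Genes of the uptake route were near the background of all genes. Of 56 genes of endocytosis and endosomal sorting, 5 lay above NT (8.93%) and 11 below (19.6%), against 10.2% and 21.1% of all genes. Their median was 0.06. CHMP1B, a subunit of the ESCRT-III membrane scission complex, had 128 and 123 CPM in NT and 61.5 to 81.9 CPM in transfected cells (adjusted p = 0.0906). It overlaps the called fall GNAL on the same strand. Of 47 genes of cytosolic nucleic acid sensing outside the interferon list, 8 lay above (17.02%) and 15 below (31.9%), or 8 and 10 after TMM, with a median of -0.03. IKBKE, a kinase related to TBK1, was on the high side, with 16.1 and 14.8 CPM in NT and 23.1 to 27.2 CPM after transfection (adjusted p = 0.0691). Of 33 p53 targets, 3 lay above (9.09%) and 5 below (15.2%). Genes of G2 and mitosis did not share the order of the G1/S list, with 16 of 72 above NT (22.2%) and 3 below, and a median of 0.25. PLK1, a kinase of mitotic entry, had 23.9 and 23.5 CPM in NT and 30.9 to 43.5 CPM in transfected cells (adjusted p = 0.148). Of 33 genes of cholesterol synthesis, 9 lay above (27.3%) and 3 below; INSIG1, which retains the SREBP complex in the endoplasmic reticulum, had 31.6 and 38.9 CPM in NT, 234 in shSRPK1 replicate 1 and 73.2 to 76.3 in the other transfected libraries.

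Members on one side of NT still could differ between the constructs. Of the 50 calls outside the interferon list, 3 also differed between oeSRPK1 and shSRPK1 in the fit with 3 groups, all lower in oeSRPK1, namely AC116407.2, ARRDC3 and SYNDIG1. That small number follows from the pooled test, which treats the construct difference as spread, and is not independent of it. Outside the calls the differences were larger. CSF2, the growth factor GM-CSF, had 0.708 and 0.880 CPM in NT, 3.44 and 1.67 with shSRPK1 and 24.1 and 24.4 in oeSRPK1, so it was 3.18 higher on the log2 scale in oeSRPK1 than in shSRPK1 (adjusted p = 0.00138). TRAF1, an adaptor of TNF receptors, had 3.54 and 4.55 CPM in NT, 4.98 and 5.28 with shSRPK1 and 42.1 and 41.1 in oeSRPK1 (log2 difference of the constructs 2.996). On the low side ALDH3A1, an aldehyde dehydrogenase, had 96.8 and 96.7 CPM in NT, 40.1 and 85.3 with shSRPK1 and 6.04 and 10.5 in oeSRPK1 (-3.10).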

How the data were processed

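The authors deposited whole-number read counts per gene, 1 table per library, not normalised. Per the submitters' processing notes, FastQC, Trimmomatic and STAR 2.5.3 with hg38 were used; which tool, annotation and strand setting made the counts is not given in the sources used here. Rows naming no gene were left out. They held 8.13% to 11.1% of reads in no gene, 12.0% to 13.1% aligned to several places and 3.04% to 3.37% ambiguous between genes. Of 60483 gene ids, 14732 passed filterByExpr (minimum count 10, minimum total 15) and held 99.83% of gene reads. CPM used total gene reads. edgeR 4.0.16 in R 4.3.3 (TMM, robust glmQLFit, glmQLFTest, Benjamini-Hochberg) tested 4 transfected against 2 NT libraries; a fit with 3 groups gave oeSRPK1 against shSRPK1 and each construct against NT. An exact permutation test of single values, 4 against 2, could not go below p = 0.0667 and was not used. The biological coefficient of variation was 25.1% in the pooled fit and 14.5% with 3 groups. DESeq2 1.42.0 and limma 3.58.1 served as alternatives. Named genes were the 15 rises and 15 falls, called, with mean log2 CPM of at least 2, whose smaller construct shift was largest, the other calls in short, and list members with the largest smaller shift or a known role, the last chosen after values were seen. The members and gene lists were chosen with earlier results of these data known. Steps were tested on simulated data. For the pooled test these held no difference between the constructs, unlike the data here, so they do not show how that test performs on them. Replicate libraries differed by more than sampling noise, and the duplicates agreed least in shSRPK1. Chi-square per gene between duplicates was 4.46 in NT, 45.5 in shSRPK1 and 8.02 in oeSRPK1. The correlations of their log2 CPM were 0.992, 0.975 and 0.984. Promoters and their build are RefSeq's; 10719 tested genes matched by symbol. A few results are not reported here.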

Additional observations from a re-analysis of the deposited data

Results flagged for a closer look

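In 2 of the 36 groups of 4 transfected libraries examined, 1 library stood apart from the other 3. For UCN2 the lowest library, shSRPK1 replicate 2, was separated by 0.850 of the whole range, and for THEMIS2 the highest, also shSRPK1 replicate 2, by 0.881, both above Dixon's critical value at the 95% level for 4 samples; chance alone gives such a gap in about 1 in 20 groups.

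Genes on one side of NT in all 4 transfected libraries still differed between the constructs. In oeSRPK1 against shSRPK1 the log2 differences were -0.97 for AC116407.2, -0.60 for ARRDC3 and -0.75 for SYNDIG1, all among the genes called in transfected against NT. Outside those calls they were 3.18 for CSF2, 2.996 for TRAF1 and 2.63 for TGFA, higher in oeSRPK1, and -3.10 for ALDH3A1, -2.38 for SLC47A1 and -2.36 for ALDH1A1, lower in oeSRPK1. Each passed edgeR's test of the difference between the constructs.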

How the results depend on the processing

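The pooled test called 115 genes. It called 1936 in the fit with 3 groups, 629 in DESeq2, 269 with no filter on low counts and 7 at an adjusted p under 0.01, and between 0 and 296 with single libraries left out. A replicate block (the replicate number as a term) called 36 and retained 5 of the 50 calls outside the interferon list; same-numbered libraries did not deviate together (correlations 0.010, -0.019 and 0.023), so the numbers are not a pairing. For oeSRPK1 against shSRPK1, 3361 genes were called, 1505 with only the transfected libraries fitted and 144 to 6152 with single libraries left out. A gap of at least 25% left 1277 of 4618 genes on one side, and leaving out single libraries gave 5320 to 6677. No gene of the 50 changed direction in any setting run, but each had every transfected library on one side of both NT libraries, so this is no separate support. All 50 passed in the fit with 3 groups and in DESeq2, 40 in limma-voom and 32 after thinning to the shallowest library. The thinning and the omission of muscle markers were chosen after seeing the data. Without NT replicate 1, NT replicate 2 or oeSRPK1 replicate 2, 0 of the 50 passed. The causes were not tested. Depth limits the low genes, since the floor was 0.771 CPM in the shallowest library.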
